A study of Mus musculus with 22 samples.

Results

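The question was whether the RNA response of bone to mechanical loading differs between mice with a Tlr4 Conditional Knockout (CKO) and wildtype (WT) mice. RNA came from the middle portion of the ulna, a forearm bone, of 11 mice; the right ulna of each mouse had been loaded and the left had not. For every gene and mouse the limb difference was taken as the loaded minus the non-loaded value on the log2 scale of CPM, the count of a gene scaled to a common library total. 4 CKO mice (688, 691, 693 and 698) and 7 WT mice (685, 686, 687, 690, 692, 694 and 699) gave 11 limb differences, and these used all 22 libraries of the series. The groups were therefore CKO loaded and CKO non-loaded with 4 libraries each, and WT loaded and WT non-loaded with 7 each. The difference of responses, the quantity reported throughout, is the CKO response minus the WT response. A positive value means that loaded exceeded non-loaded bone by more, or fell below it by less, in CKO mice. The series title ties the receptor to osteoblasts, and the labels used here give no Cre driver, deleted exons, ages, loading regime or harvest time.

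Tlr4 encodes the receptor for bacterial lipopolysaccharide, which also answers products of damaged tissue. Through the adaptor Myd88 it induces cytokine genes, and through another adaptor, Ticam1, which it reaches with the help of Ticam2, it induces interferon and the genes that interferon switches on. Loading of bone is sensed largely by osteocytes, the cells buried in the matrix, and it is followed within minutes to hours by immediate-early transcription factors and later by Wnt signals that act on osteoblasts.

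Tlr4 itself (ENSMUSG00000039005, chromosome 4, 66827584 to 66930284, GRCm38) was measured at 29.2 ± 3.16 CPM in CKO loaded and 30.1 ± 3.43 CPM in CKO non-loaded ulnae (SD, n = 4 each), against 33.4 ± 4.82 CPM in WT loaded and 32.5 ± 4.89 CPM in WT non-loaded ulnae (SD, n = 7 each). Its limb differences were 0.14, -0.06, 0.19 and -0.44 in CKO mice and ran from -0.12 to 0.28 with a median of 0.01 in WT mice, so the groups overlapped. The difference of responses was -0.09 ± 0.14 (SE; edgeR, adjusted p = 0.764), and -0.09 ± 0.15 without the mice 688 and 686 described next. A count over the whole gene does not check a deletion of part of it, or in 1 cell type.

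2 loaded libraries went against their labels. Ltbp2, a gene of the microfibrils of the extracellular matrix that was picked here with its values in view, stood at 38.4 CPM in the library labelled CKO loaded 688, against 205, 284 and 244 CPM in the other CKO loaded libraries. In the library labelled WT loaded 686 it stood at 380 CPM, against 38.8 to 55.7 CPM in the other WT loaded libraries. Its limb differences were therefore -3.01 in mouse 688 and 3.04 in mouse 686, and within -0.49 to 0.63 in the other 9 mice. A set of 60 genes whose levels repeat between the limbs of those 9 mice, Ltbp2 left out, was read in the same libraries. Over these genes the non-loaded library of mouse 688 had a correlation of 0.10 with the loaded library of its own number and of 0.72 with the library labelled WT loaded 686. The non-loaded library of mouse 686 had a correlation of 0.11 with the loaded library of its own number, of 0.63 with the library labelled CKO loaded 688 and of 0.75 with WT loaded 687. In the other 9 mice, on which the genes were chosen, the own limbs correlated at 0.73 to 0.95. Over 72 immunoglobulin variable segments the non-loaded library of mouse 688 correlated at -0.15 with the loaded library of its own number and at 0.11 with the library labelled WT loaded 686, its best match being CKO loaded 698 at 0.16. The non-loaded library of mouse 686 correlated at 0.07 with its own and at 0.27, its highest, with the library labelled CKO loaded 688. In the other 9 mice the own limbs correlated at -0.04 to 0.69 over these segments, and 7 of the 9 matched their own limb best. Mouse 686 lay within that range and mouse 688 below it, so these segments alone do not set mouse 686 apart. If these loaded libraries were exchanged, which was not tested, the limb differences of mice 688 and 686 set limbs of different animals and genotypes against each other in every value over all 11 mice. No library was reassigned, and the results are given with all 11 mice and, for the genes and lists described most closely, also without mice 688 and 686.

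**Figure D1:**
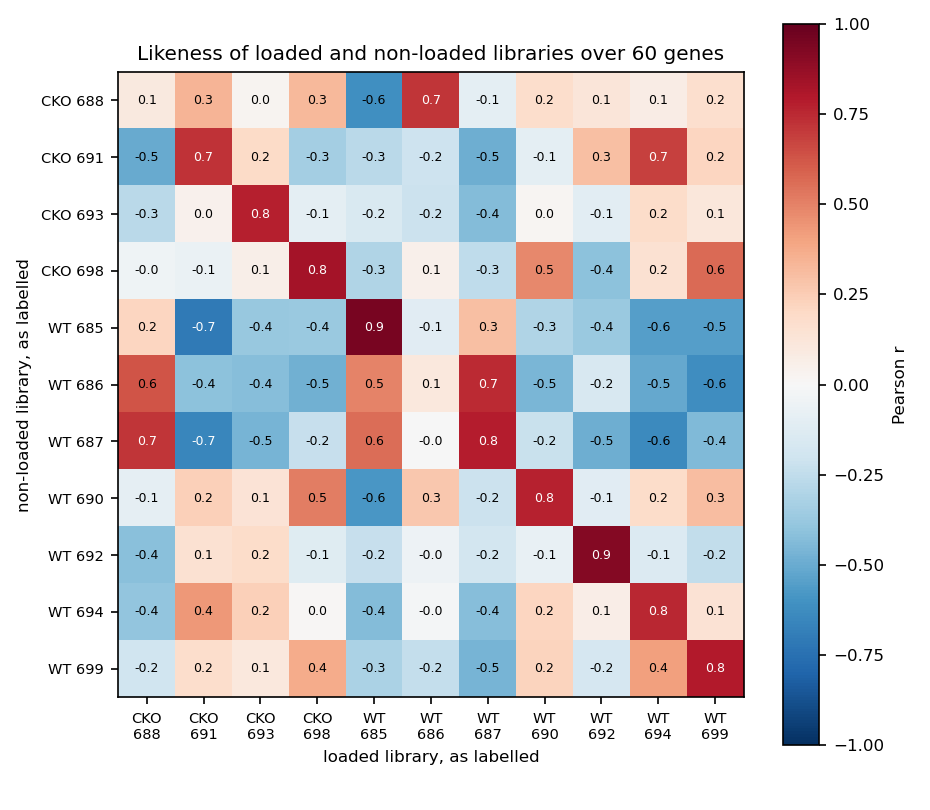
Pearson correlation, over 60 genes that repeat between the limbs of the other 9 mice, between every non-loaded library (rows) and every loaded library (columns), as labelled. Along the diagonal, where both limbs carry 1 mouse number, 9 mice lie at 0.73 to 0.95, and mice 688 and 686 lie at 0.10 and 0.11.

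No gene passed the test of the difference of responses. The test was edgeR's quasi-likelihood test with the mouse as a block, that is, on the difference between the limbs of each mouse, with Benjamini-Hochberg adjusted p-values over 18793 genes; an adjusted p under 0.05 counts as a call. The share called was 0%, and the lowest adjusted p was 0.601. At an unadjusted p under 0.05 there were 303 genes (1.61%) with a higher and 445 genes (2.37%) with a lower response in CKO mice, 748 in all. By the same measure limma on the limb differences gave 787 genes, limma voom with quality weights 2377 and DESeq2 966. DESeq2 with the mouse as a block called 1 gene, Pclo, described below, and the limma fits called 0. Without mice 688 and 686 the edgeR count was again 0 (lowest adjusted p = 0.259), and 1444 genes (7.63%) with a higher and 2174 (11.5%) with a lower response had an unadjusted p under 0.05. With all mice, 26 genes (0.138%) had all 4 CKO limb differences above all 7 WT limb differences, and 43 (0.229%) had all of them below. Without mice 688 and 686 these counts were 316 (1.68%) and 358 (1.9%). P-values measure the spread between mice, and the values below describe size and separation in these mice, not calls.

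Transcription factors of the immediate-early class lay toward a larger response in CKO mice, and none of them was called. Fosb (ENSMUSG00000003545, chromosome 7, 19302696 to 19310051), a partner of Jun in the AP-1 factor, had limb differences of 2.77, 2.98, 3.08 and 2.31 in the 4 CKO mice. In the 7 WT mice they ran from 0.59 to 2.70 with a median of 1.31. Of the WT mice only mouse 690 reached into the CKO range. Its level averaged 11.9 ± 2.86 CPM in CKO loaded and 1.75 ± 0.749 CPM in CKO non-loaded ulnae (SD, n = 4 each), against 5.99 ± 2.54 CPM in WT loaded and 2.35 ± 0.804 CPM in WT non-loaded ulnae (SD, n = 7 each). The groups thus stood further apart in the loaded than in the non-loaded limb. The difference of responses was 1.5 ± 0.36 (edgeR, adjusted p = 0.601) with all mice and 1.54 ± 0.45 (edgeR, adjusted p = 0.259) without mice 688 and 686.

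Egr1, a zinc finger factor induced by growth factors and strain, gave limb differences of 1.45, 1.90, 1.42 and 2.20 in CKO mice, and of 0.36 to 1.70 with a median of 0.84 in WT mice. Here too mouse 690 was the WT mouse inside the CKO range. Egr1 averaged 70.0 ± 13.8 CPM in CKO loaded and 20.7 ± 3.49 CPM in CKO non-loaded ulnae, against 47.8 ± 14.3 CPM in WT loaded and 26.7 ± 11.9 CPM in WT non-loaded ulnae. The responses differed by 0.87 ± 0.25 with all mice and 1.05 ± 0.29 without mice 688 and 686. Fos, the founding member of the family of Fosb, had limb differences of 0.47, 1.70, 0.69 and 1.78 in CKO mice and of -0.22 to 0.67 with a median of 0.41 in WT mice. 3 of 7 WT mice lay inside the CKO range, and the difference of responses was 0.89 ± 0.28, or 1.17 ± 0.30 without mice 688 and 686. Of the 23 immediate-early genes tested, 17 had a positive difference of responses, with a median of 0.46, beside 49.6% positive and a median of -0.004 over all genes. 5 of the 23 had an unadjusted p under 0.05, all with a higher response in CKO mice, where 1.61% of all genes did. Their mean limb difference was 0.41, 1.19, 0.81 and 0.92 in CKO mice and ran from 0.15 to 0.72 with a median of 0.53 in WT mice, so mouse 688 fell among the WT mice. Arc and Nr4a3 were the other members under that p, and none was called. With mice 688 and 686 left out the median was 0.70.

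**Figure D2:**
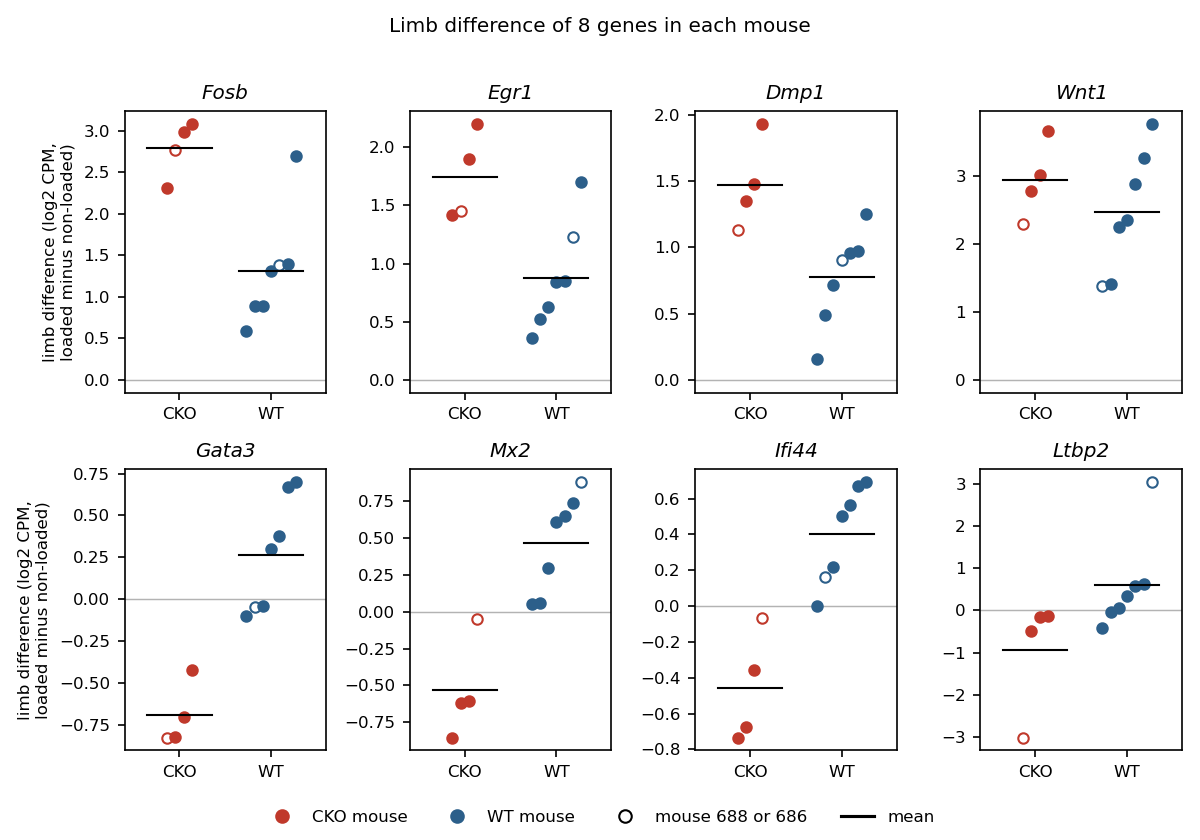
Limb difference (log2 CPM, loaded minus non-loaded) of 8 genes in each mouse, CKO left and WT right in each panel; lines are means and open circles are mice 688 and 686. Fosb, Egr1 and Dmp1 have 1 WT mouse each inside the CKO range, Gata3, Mx2 and Ifi44 have none, and Ltbp2 is set apart by the open circles.

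Loading itself was called for a few genes within a genotype. With all mice, edgeR called 5 genes (0.0266%) for loading in CKO mice, namely Fosb, Egr1, Dmp1, Wnt1 and Gm42679, an unnamed transcript annotated as intronic that was added here with its values in view, and 2 genes (0.0106%), Wnt1 and Gm42679, in WT mice. Fosb rose by 2.82 ± 0.29 in CKO ulnae (edgeR, adjusted p = 0.0113), and its estimate in WT ulnae was 1.32 ± 0.22 (edgeR, adjusted p = 0.201). Without mice 688 and 686 no gene was called in CKO (0%, 3694 genes at an unadjusted p under 0.05, lowest adjusted p = 0.0774) or in WT mice (0%, 777 genes, lowest adjusted p = 0.0772). A call in CKO and none in WT mice is no test of a difference, which is the value given for each gene. Both responses of Wnt1, a secreted ligand with a known role in building bone (chromosome 15, 98789857 to 98793837), passed the test with all mice. It rose by 3.03 ± 0.40 in CKO ulnae (edgeR, adjusted p = 0.0307) and by 2.49 ± 0.30 in WT ulnae (edgeR, adjusted p = 0.0445). The limb differences of Wnt1 were 2.29, 2.78, 3.66 and 3.01 in CKO mice and 1.38 to 3.76 with a median of 2.35 in WT mice, and 3 WT mice lay inside the CKO range. For Wnt1 the difference of responses was 0.55 ± 0.49, and 0.57 ± 0.50 without mice 688 and 686, about the size of its SE. Gm42679 gave 0.53 ± 0.39, and 0.64 ± 0.41 without them. Ptgs2, the inducible enzyme of prostaglandin synthesis, gave 0.03 ± 0.68; its limb differences were 0.90, 0.75, 3.42 and 1.67 in CKO mice and 0.59 to 2.99 with a median of 1.54 in WT mice. When mice 688 and 686 were left out the value of Ptgs2 was 0.39 ± 0.74. Near 1 CPM on average, Ptgs2 was measured from few counts.

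Genes of osteocytes were also mostly positive. Dmp1, a matrix protein that osteocytes secrete for mineralisation (chromosome 5, 104202613 to 104214102), had limb differences of 1.13, 1.35, 1.93 and 1.48 in CKO mice and of 0.16 to 1.25 with a median of 0.90 in WT mice. 1 WT mouse lay inside the CKO range. Dmp1 averaged 340 ± 128 CPM in CKO loaded and 118 ± 16.9 CPM in CKO non-loaded ulnae (SD, n = 4 each), against 306 ± 72.2 CPM in WT loaded and 182 ± 58.4 CPM in WT non-loaded ulnae (SD, n = 7 each). The non-loaded limbs of the genotypes thus stood further apart, as a ratio, than the loaded ones. For Dmp1 the responses differed by 0.69 ± 0.22 with all mice and 0.84 ± 0.26 without mice 688 and 686.

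Sost, which encodes the Wnt inhibitor sclerostin, showed a similar arrangement of means with a wider spread. It averaged 347 ± 113 CPM in CKO loaded and 278 ± 24.5 CPM in CKO non-loaded ulnae, against 331 ± 52.8 CPM in WT loaded and 453 ± 184 CPM in WT non-loaded ulnae. The limb differences were -0.38, 0.38, 0.95 and 0.13 in CKO mice and -1.57 to 0.34 with a median of -0.27 in WT mice, and 5 WT mice lay inside the CKO range. For Sost the responses differed by 0.63 ± 0.36, and by 0.86 ± 0.41 without mice 688 and 686. Mepe, another osteocyte matrix protein, gave 0.70 ± 0.35, and Tnfrsf11b, the decoy receptor that holds osteoclast formation in check, gave 0.43 ± 0.20. Without those mice the values were 0.91 ± 0.42 for Mepe and 0.54 ± 0.24 for Tnfrsf11b. The scores described below gave 0.59 ± 0.31 for Mepe and 0.24 ± 0.14 for Tnfrsf11b with all mice. Scores and leaving out those mice together gave 0.69 ± 0.49 for Mepe and 0.10 ± 0.21 for Tnfrsf11b. Of the 14 osteocyte genes 13 were positive, with a median of 0.44 with all mice and 0.63 without mice 688 and 686. The list's mean limb difference was -0.04, 0.62, 0.77 and 0.31 in CKO mice and -0.78 to 0.60 with a median of 0.04 in WT mice. The groups overlapped, and 2 CKO mice, 691 and 693, exceeded every WT mouse.

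Other genes of bone formation followed with smaller values. Of the 22 osteoblast and matrix genes 18 were positive, with a median of 0.33, and 2 had an unadjusted p under 0.05 with a higher response in CKO mice, where 1.61% of all genes did. These were Bglap2 and Bglap, near-identical neighbours that encode osteocalcin and share reads. Bglap2 gave limb differences of 1.17, -0.15, -0.16 and 0.07 in CKO mice and of -0.69 to 0.04 with a median of -0.51 in WT mice. Its difference of responses of 0.70 ± 0.25 was 0.40 ± 0.18 without mice 688 and 686, and mouse 688 was the highest of all mice. Bglap, also highest in mouse 688 at 1.5, gave 0.76 ± 0.35 with all mice, 0.42 ± 0.25 without mice 688 and 686, where its unadjusted edgeR p was 0.124, and 0.05 ± 0.24 with the scores described below as well. The 12 Wnt ligands tested were positive throughout, with a median of 0.52, and 11 of 12 Wnt antagonists were positive, with a median of 0.56, so secreted activators and inhibitors of the pathway lay on the same side. Wnt11 gave 0.79 ± 0.41, Wnt5a 0.50 ± 0.27 and the antagonist Dkk1 0.58 ± 0.37. Of 11 Wnt target genes 6 were positive, with a median of 0.16, Lgr6 among them at 0.49 ± 0.23. Among 19 genes of BMP and TGF-beta signalling 16 were positive, with a median of 0.27, such as Bmp7 at 0.97 ± 0.45, the decoy receptor Bambi at 0.55 ± 0.23 and the ligand Tgfb2 at 0.55 ± 0.28. All 15 osteoclast genes were negative, with a median of -0.35, including Tcirg1, a subunit of the proton pump, at -0.35 ± 0.23. In the 9 mice other than 688 and 686 the list medians were 0.31 for osteoblast and matrix, 0.86 for Wnt ligand, 0.77 for Wnt antagonist, 0.30 for Wnt target, 0.41 for BMP and TGF-beta and -0.65 for osteoclast genes. A further fit took a muscle and a marrow score of each library, the mean log2 CPM of muscle and of blood cell genes, as covariates. In it the medians were 0.15 for osteoblast and matrix genes (20 of 22 positive), 0.04 for Wnt ligands (6 of 12), 0.01 for Wnt antagonists (6 of 12), -0.19 for Wnt targets (4 of 11), 0.04 for BMP and TGF-beta genes (10 of 19) and -0.04 for osteoclast genes (4 of 15), with Tcirg1 at -0.04 ± 0.12. The direction of the Wnt targets thus turned, and that of the Wnt ligands, Wnt antagonists and osteoblast genes turned, to -0.06, -0.16 and -0.05, when mice 688 and 686 were left out as well. No member of these lists was called in these fits, and with all mice none had limb differences that separated the genotypes.

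Among all genes with a mean of at least 1 CPM, the 10 with the smallest p and a higher response in CKO mice were Fosb, Catsperg1, Sema3d, Zfp108, Egr1, Catsper2, Smad3, Agt, Tal2 and Stc2. Smad3, which carries the TGF-beta signal to the nucleus, had limb differences of 0.20, 0.68, 0.40 and 0.83 in CKO mice and of -0.23 to 0.18 with a median of 0.10 in WT mice. The groups did not overlap, and the gap between CKO 688 and the highest WT mouse was small. It averaged 88.7 ± 10.9 CPM in CKO loaded and 61.9 ± 11.1 CPM in CKO non-loaded ulnae, against 74.1 ± 13.3 CPM in WT loaded and 70.3 ± 10.8 CPM in WT non-loaded ulnae. For Smad3 the responses differed by 0.46 ± 0.14, and by 0.59 ± 0.14 without mice 688 and 686. Agt, which encodes angiotensinogen, the precursor of angiotensin, separated the groups at a smaller size. The 4 CKO limb differences of Agt were 0.15, 0.10, 0.20 and 0.01, the 7 WT ones ran from -0.36 to -0.05 with a median of -0.24, and the difference of responses was 0.36 ± 0.11. Sema3d, a secreted guidance protein, gave 0.84 ± 0.22 and had 1 WT mouse, 699, inside the CKO range. Stc2, a secreted glycoprotein that acts on calcium and phosphate handling, gave 0.70 ± 0.22. Catsperg1 and Catsper2, known as parts of the sperm calcium channel, gave 0.96 ± 0.25 and 1.06 ± 0.31 from means of 1.25 and 1.54 CPM. Catsper2 overlaps the far more abundant Pdia3 on the opposite strand, and since the sources do not say whether counting used strand, its counts are uncertain. The zinc finger gene Zfp108 gave 0.79 ± 0.23 and the transcription factor gene Tal2 gave 0.96 ± 0.30. Over the other 9 mice the values were 1.03 for Sema3d, 0.36 for Agt, 0.64 for Stc2, 1.37 for Catsper2 and 0.97 for Tal2. All 10 stayed positive in every fit tried, but not all kept their size. In the fit with both scores and without mice 688 and 686, Zfp108 gave 0.39 ± 0.29. In that fit Tal2 gave 0.34 ± 0.42, Stc2 0.33 ± 0.27 and Catsperg1 0.75 ± 0.43. Sema3d gave 0.69 ± 0.30, Smad3 0.38 ± 0.13 and Catsper2 1.07 ± 0.40 there. The values of Fosb, Egr1 and Agt were 1.76 ± 0.64, 1.03 ± 0.445 and 0.40 ± 0.165.

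Pclo, which encodes a scaffold protein of the presynaptic zone, was the gene that DESeq2 called (difference of responses, DESeq2 adjusted p = 0.03). It is named after its values were seen, since its mean of 0.511 CPM lies under the limit used for the other genes. The limb differences were 2.37, 2.22, 1.45 and 1.72 in CKO mice and -1.38 to 0.50 with a median of -0.32 in WT mice, with no overlap. Pclo averaged 0.838 ± 0.324 CPM in CKO loaded and 0.173 ± 0.108 CPM in CKO non-loaded ulnae, against 0.444 ± 0.20 CPM in WT loaded and 0.585 ± 0.214 CPM in WT non-loaded ulnae. The lowest of the group means was thus that of the CKO non-loaded ulnae. The edgeR difference of responses was 2.67 ± 0.45 (adjusted p = 0.601), and 2.65 ± 0.52 without mice 688 and 686, where neither tool called it.

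Interferon-stimulated genes lay toward a lower response in CKO mice, and none was called. The promoters of 3 of them are shown because this class is known for a shared response element. They are the RefSeq windows (GRCm38.p6, 250 bases before to 50 after the gene start, on the strand of the gene), and capitals mark GAAANNGAAA or its complement on the other strand, TTTCNNTTTC. Isg15 (chr4:156200769-156201068, minus strand) encodes a ubiquitin-like modifier, Gbp3 (chr3:142559794-142560093, plus strand) a guanylate-binding protein, and Ifi44 (chr3:151749861-151750160, minus strand) an antiviral protein whose window holds no match. Isg15 and Gbp3 were chosen after their values were seen, as the members with a match that had the largest difference of responses and the smallest p.
Isg15: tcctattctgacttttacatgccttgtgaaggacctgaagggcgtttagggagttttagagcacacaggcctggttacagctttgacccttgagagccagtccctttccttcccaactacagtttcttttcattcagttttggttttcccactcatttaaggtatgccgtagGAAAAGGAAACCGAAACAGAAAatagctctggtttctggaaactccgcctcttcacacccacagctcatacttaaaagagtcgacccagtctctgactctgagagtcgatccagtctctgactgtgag
Gbp3: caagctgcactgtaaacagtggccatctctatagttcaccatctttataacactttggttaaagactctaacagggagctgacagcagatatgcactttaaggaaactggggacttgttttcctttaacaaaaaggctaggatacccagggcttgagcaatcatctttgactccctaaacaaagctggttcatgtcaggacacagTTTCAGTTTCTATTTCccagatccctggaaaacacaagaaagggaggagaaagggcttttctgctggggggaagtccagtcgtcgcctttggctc
Ifi44: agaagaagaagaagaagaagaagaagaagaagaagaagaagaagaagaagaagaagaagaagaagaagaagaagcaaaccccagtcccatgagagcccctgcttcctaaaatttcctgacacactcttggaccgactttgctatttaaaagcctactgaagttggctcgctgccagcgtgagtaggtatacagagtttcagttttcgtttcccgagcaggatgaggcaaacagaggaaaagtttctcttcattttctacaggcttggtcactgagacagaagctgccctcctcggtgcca

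Of the 31 listed genes 22 had a window, and 14 of these (63.6%) held the motif on either strand, against 3.99% of the 27025 genes with a window; a gene with several matches, which overlap in Isg15 and in Gbp3, was counted once. The first match began 78 bases before the start of Isg15 and 45 bases before that of Gbp3. The difference of responses had a median of -0.41 over the 14 genes with a match and of -0.56 over the 8 without, so the letters did not sort the members by size. The match is a description of these windows.

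Mx2 (chromosome 16, 97535308 to 97560900), which encodes an antiviral GTPase and is annotated as a polymorphic pseudogene, which kept it out of the genes ranked by p, had limb differences of -0.05, -0.62, -0.85 and -0.60 in CKO mice and of 0.05 to 0.88 with a median of 0.61 in WT mice. The groups did not overlap: loaded lay below non-loaded bone in 4 of 4 CKO mice and above it in 7 of 7 WT mice. Mx2 averaged 1.02 ± 0.257 CPM in CKO loaded and 1.48 ± 0.208 CPM in CKO non-loaded ulnae (SD, n = 4 each), against 1.56 ± 0.339 CPM in WT loaded and 1.1 ± 0.228 CPM in WT non-loaded ulnae (SD, n = 7 each). For Mx2 the responses differed by -1.06 ± 0.26 (edgeR, adjusted p = 0.601), and by -1.13 ± 0.27 (edgeR, adjusted p = 0.259) without mice 688 and 686. Ifi44 (chromosome 3, 151730922 to 151749960) likewise did not overlap, with -0.07, -0.73, -0.35 and -0.67 in CKO mice against -0.002 to 0.69 with a median of 0.50 in WT mice. The difference of responses of Ifi44 was -0.91 ± 0.24, and -1.06 ± 0.26 without mice 688 and 686. Zbp1, a sensor of unusual nucleic acid structures, gave -0.61 ± 0.24 and had 1 WT mouse inside the CKO range.

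Of the 31 interferon-stimulated genes tested 30 were negative, with a median of -0.47, and 6 had an unadjusted p under 0.05 with a lower response in CKO mice, where 2.37% of all genes did. The 6 were Mx2, Ifi44, Zbp1, Oasl1, Gbp3 and Ddx58. The mean limb difference of the list was 0.22, -0.73, -0.15 and -0.57 in CKO mice and ran from -0.34 to 0.58 with a median of 0.21 in WT mice. Mice 691 and 698 lay below every WT mouse, and mouse 688 lay among the WT mice. Without mice 688 and 686 the median was -0.69 and 16 of the 31 had an unadjusted p under 0.05 with a lower response, where 11.5% of all genes did. With the muscle and marrow scores as covariates, the list's median was -0.16, while Mx2 stood at -0.93 ± 0.32 and Ifi44 -0.68 ± 0.25.

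Genes of innate sensing lay on the same side. All 14 inflammasome genes tested were negative, with a median of -0.53. Nlrc4, the adaptor of the NAIP inflammasomes that sense bacterial proteins, had limb differences of -0.32, -1.34, -0.41 and -0.38 in CKO mice and of -0.26 to 1.18 with a median of 0.34 in WT mice. The groups did not overlap, by a narrow margin. For Nlrc4 the responses differed by -0.98 ± 0.30, by -0.61 ± 0.21 with the muscle and marrow scores, and by -0.36 ± 0.27 with the scores and without mice 688 and 686. Mefv, which encodes pyrin, another inflammasome sensor, gave -0.69 ± 0.27, and 5 WT mice lay inside its CKO range. Among 23 inflammatory genes that TLR4 and NF-kB induce, 19 were negative, with a median of -0.42. Il1a, which encodes a cytokine of the interleukin-1 family, gave -1.05 ± 0.50 and Tnf gave -0.62 ± 0.32, with 4 and 6 WT mice inside the CKO range. Of the 14 genes of the TLR4 receptor complex and its adaptors 13 were negative, at a small median of -0.11. With mice 688 and 686 left out the list medians were -0.74 for inflammasome, -0.68 for inflammatory and -0.20 for TLR4 complex genes, and Nlrc4 stood at -1.06 ± 0.36. With the scores and all mice the medians were -0.14 for inflammasome genes, -0.04 for inflammatory genes, of which 11 of 23 were then positive, and -0.03 for TLR4 complex genes. In that fit Il1a stood at -0.48 ± 0.35, Tnf at -0.22 ± 0.23 and Mefv at -0.32 ± 0.15. Myd88 gave -0.33 ± 0.22 and Ticam2 -0.49 ± 0.31; Myd88 overlaps Acaa1a and Ticam2 overlaps Tmed7, both more abundant, so these counts are uncertain. No member of these lists was called in these fits.

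The 10 genes of smallest p with a lower response in CKO mice were Adora3, Gata3, Ifi44, Gmds, Mir142hg, Ifi208, Tmem108, Lama1, Nlrc4 and Nrg1. Gata3 (chromosome 2, 9857078 to 9890034), a transcription factor of T cells and innate lymphoid cells, had limb differences of -0.83, -0.70, -0.82 and -0.42 in CKO mice and of -0.10 to 0.70 with a median of 0.30 in WT mice. The groups did not overlap, also without mice 688 and 686. Gata3 averaged 1.04 ± 0.209 CPM in CKO loaded and 1.71 ± 0.195 CPM in CKO non-loaded ulnae, against 1.44 ± 0.27 CPM in WT loaded and 1.18 ± 0.168 CPM in WT non-loaded ulnae. For Gata3 the responses differed by -1.0 ± 0.25 with all mice, by -1.0 ± 0.29 without mice 688 and 686 and by -1.03 ± 0.29 with the muscle and marrow scores. Adora3, an adenosine receptor of mast cells and other leukocytes, gave limb differences of -0.39, -1.40, -1.24 and -1.48 in CKO mice and of -0.63 to 0.65 with a median of 0.18 in WT mice. The difference of responses of Adora3 was -1.29 ± 0.31, or -1.44 ± 0.30 without mice 688 and 686, and WT mouse 699 lay inside the CKO range.

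Mir142hg, the host transcript of a microRNA of blood cells, gave -1.15 ± 0.32, and Ifi208, of a family of interferon-inducible near-copies that share reads, gave -1.22 ± 0.35. Lama1, a chain of laminin in basement membranes, gave -1.14 ± 0.35, and Gmds, an enzyme that makes the sugar donor for fucosylation, gave -0.49 ± 0.13. Neither Mir142hg, Lama1 nor Gmds had a WT mouse inside the CKO range. Nrg1, a ligand of ErbB receptors, gave -0.81 ± 0.25, and the membrane protein gene Tmem108 gave -1.46 ± 0.44. When mice 688 and 686 were left out the values were -1.37 for Mir142hg, -1.09 for Ifi208, -1.37 for Lama1, -0.50 for Gmds, -0.96 for Nrg1 and -1.89 for Tmem108. Adding the muscle and marrow scores to that fit gave -0.59 ± 0.38 for Lama1 and -0.44 ± 0.445 for Ifi208. It gave -1.15 ± 0.43 for Mir142hg, -0.42 ± 0.20 for Gmds, -0.815 ± 0.33 for Nrg1 and -1.58 ± 0.48 for Tmem108. Lama1 and Tmem108 averaged 1.31 and 1.24 CPM and rest on few counts. The plot of 24 genes in 3 fits shows the estimates side by side.

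**Figure D3:**
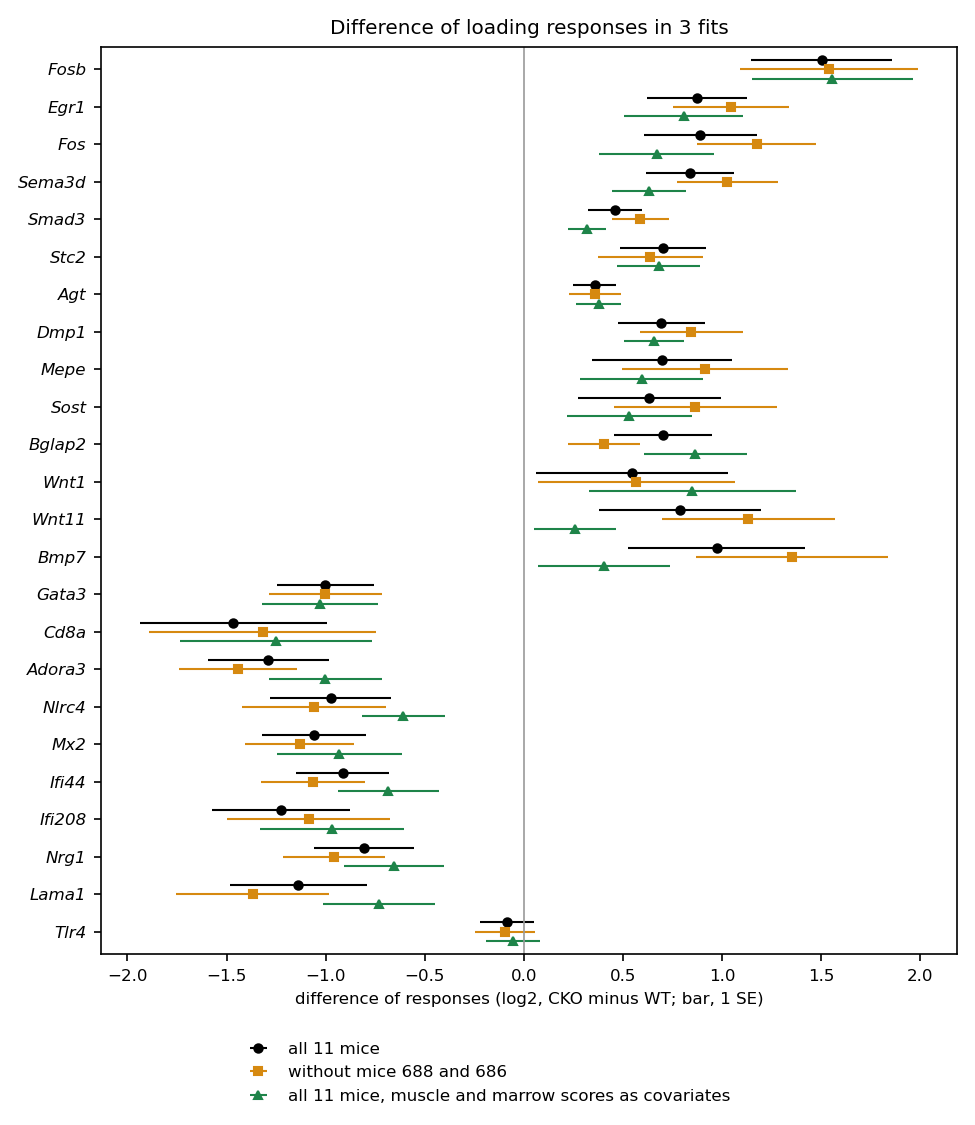
Difference of responses (log2, CKO minus WT, bars 1 SE) of 24 named genes with all 11 mice, without mice 688 and 686, and with muscle and marrow scores as covariates. Fosb lies between 1.5 and 1.56 and Gata3 between -1.03 and -1.0 in the 3 fits, whereas Wnt11 is 1.13 without those mice and 0.26 with the scores.

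Genes of other tissues in the bone sample differed along with these groups. 23 skeletal muscle genes, such as Myh2 and Actn2 of the contractile apparatus, were all positive, with a median of 0.78, as were 30 genes of oxidative phosphorylation (median 0.45) and 16 of fatty acid oxidation (median 0.44). Lists of blood and marrow cells were negative: 20 of 20 erythroid genes with a median of -0.85, 20 of 20 neutrophil genes with -0.63, 13 of 13 megakaryocyte genes with -0.80, 16 of 16 B cell genes with -0.74 and 26 of 27 T and NK cell genes with -0.78. The cell cycle list, of genes of dividing cells of any type, was negative in 28 of 28 genes with a median of -0.70. In the 9 mice other than 688 and 686 the medians were 1.26 for muscle, 0.77 for oxidative phosphorylation, 0.72 for fatty acid oxidation, -1.65 for erythroid, -0.95 for neutrophil, -0.96 for B cell, -0.77 for T and NK cell and -1.22 for cell cycle genes. Every muscle, erythroid, neutrophil, B cell, T and NK cell and osteocyte marker had counts in every library. In bulk bone, fewer cells of a type and less RNA per cell cannot be told apart.

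The share of counts in muscle genes was 12.1 to 17.4% in CKO loaded and 3.07 to 15.8% in CKO non-loaded libraries, against 6.15 to 15.7% in WT loaded and 4.95 to 14.4% in WT non-loaded libraries. Its limb difference was -3.77, 10.4, 2.37 and 6.43 percentage points in CKO mice and -5.65 to 5.39 with a median of 1.21 in WT mice. The means differed by 3.95 points (exact two-sided permutation test over 330 assignments, p = 0.206), by 6.71 without mice 688 and 686 (exact permutation over 84 assignments, p = 0.0357) and by 6.49 without mouse 688 alone (exact permutation, p = 0.025). With 1 mouse left out, 6.49 was the highest value, and the lowest was 1.78, without mouse 691. Erythroid, neutrophil and B cell genes together took 0.485 to 0.974% of counts in CKO loaded and 0.637 to 2.54% in CKO non-loaded libraries, against 0.543 to 1.68% in WT loaded and 0.537 to 3.06% in WT non-loaded libraries. For that share the limb difference differed by -0.53 points (exact permutation, p = 0.342), by -0.83 without mice 688 and 686 (exact permutation, p = 0.202), and by -0.15 without mouse 691 to -0.82 without mouse 699. The part of these tissues in the values of the gene groups above was not tested. With both scores as covariates the median difference of responses was 0.02 for muscle, 0.13 for erythroid and -0.01 for cell cycle genes. In the same fit it was 0.18 for immediate-early and 0.24 for osteocyte genes. The muscle genes make up the muscle score and the erythroid genes enter the marrow score, so medians near 0 for these lists are built into the fit.

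**Figure D4:**
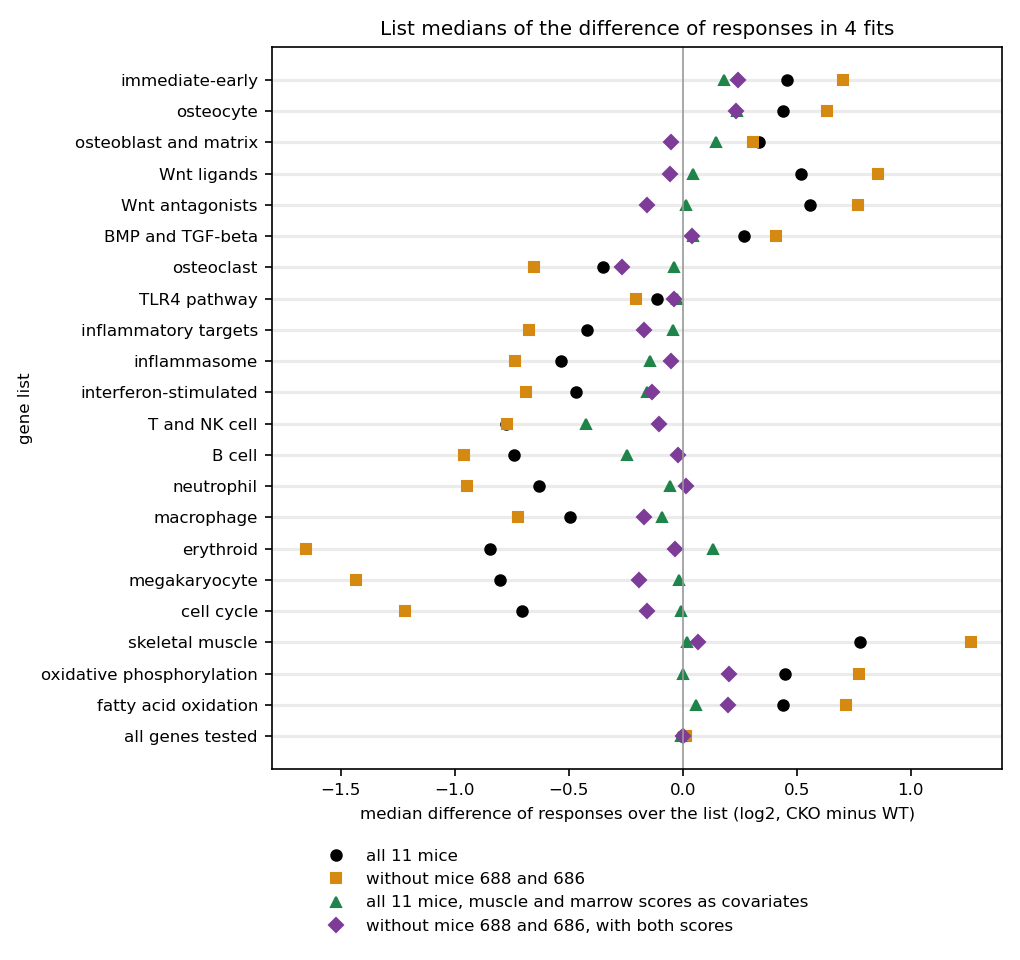
Median difference of responses (log2, CKO minus WT) over the tested members of 21 gene lists and over all genes, in 4 fits. Without mice 688 and 686 most lists move away from 0 and muscle reaches 1.26, while with the muscle and marrow scores the muscle and cell cycle lists lie at 0.02 and -0.01. The muscle, erythroid, neutrophil and B cell genes make up the scores, so values near 0 for those lists are built into the fits with scores.

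Muscle genes lay opposite erythroid, neutrophil and cell cycle genes on the main axis along which the 11 limb differences varied. How much of that axis these genes account for was not tested. The first principal component of the limb differences held 46.6% of their variance and the second 8.81%. All 23 muscle genes loaded on one side of the first component, and 20 erythroid, 20 neutrophil and 28 cell cycle genes on the other. Mouse scores on it were -0.33, 0.86, 0.06 and 0.35 in CKO and -0.71 to 0.52 with a median of -0.10 in WT mice, so the genotypes overlapped. The extremes at the muscle end were CKO 691 and WT 699, and the extreme at the marrow end was WT 694. CKO 691 had a mean limb difference of 2.57 over the muscle genes and WT 699 of 1.13, against -1.29 in WT 694.

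**Figure D5:**
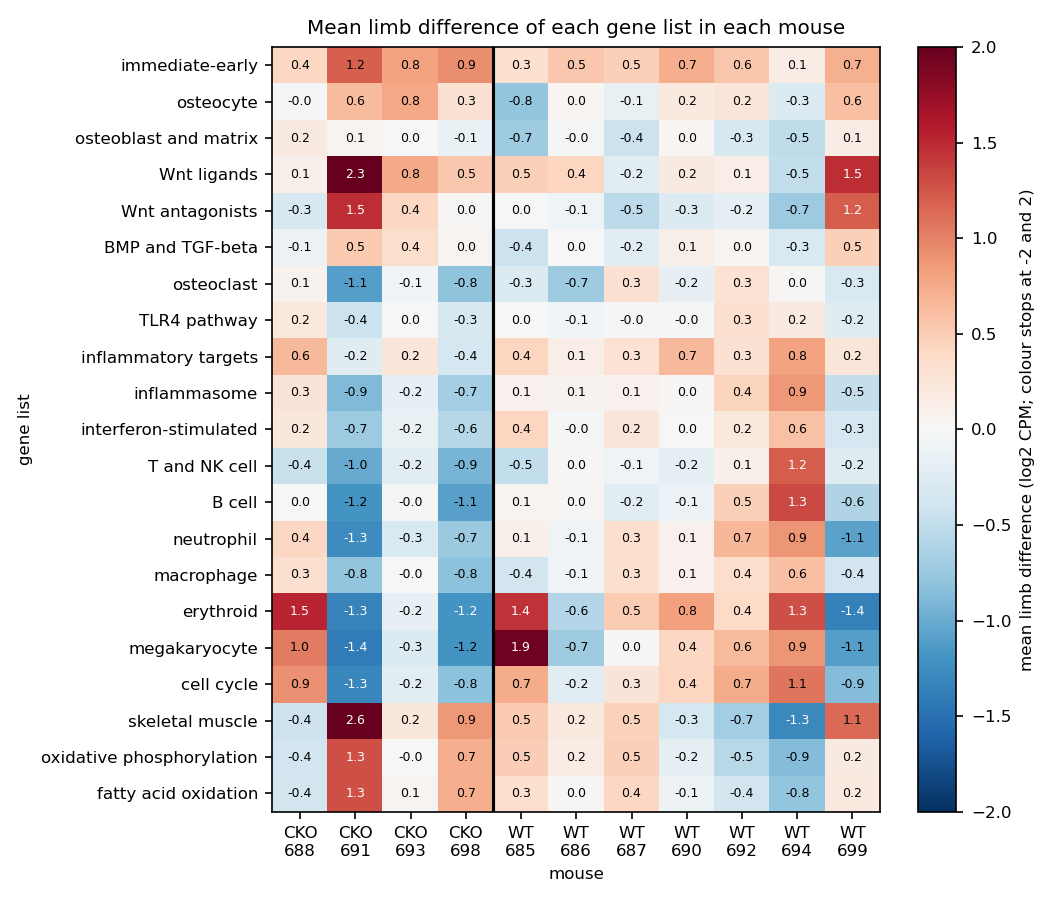
Mean limb difference (log2 CPM, loaded minus non-loaded) of 21 gene lists in each mouse, CKO mice left of the line and WT mice right of it. CKO 691 and 698 and WT 699 share high muscle and low erythroid values, while CKO 688 lies within or near the WT range in the blood and muscle lists.

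T cell genes held 3 of the genes that separated the genotypes. Of 27 T and NK cell genes 8 had an unadjusted p under 0.05 with a lower response in CKO mice, where 2.37% of all genes did. The limb differences of 3, Gata3, Cd8a and Cd2, did not overlap and lay lower in CKO mice, where 0.229% of all genes did so. Cd8a, the co-receptor of cytotoxic T cells, had limb differences of -1.45, -1.28, -0.64 and -1.33 in CKO mice and of -0.54 to 2.17 with a median of -0.17 in WT mice, and gave a difference of responses of -1.47 ± 0.47. Cd2, an adhesion receptor of T cells, gave -1.01 ± 0.35. Without mice 688 and 686 these were -1.32 ± 0.57 for Cd8a and -1.14 ± 0.41 for Cd2. With the muscle and marrow scores the list's median was -0.42, with Cd8a at -1.25 ± 0.48 and Cd2 at -0.66 ± 0.29. With the scores and without those mice it was -0.10, with Cd8a at -0.76 ± 0.69 and Cd2 at -0.46 ± 0.42. The list's mean limb difference was -0.44, -1.01, -0.22 and -0.93 in CKO mice and ran from -0.50 to 1.21 with a median of -0.09 in WT mice, whose highest value is that of mouse 694. Of 16 B cell genes 5 had such a p with a lower response, beside the same 2.37% of all genes. They included Ms4a1, the CD20 antigen, at -0.82 ± 0.35 and Pax5, the B cell identity factor, at -0.86 ± 0.37. With the scores these were -0.40 ± 0.22 for Ms4a1 and -0.36 ± 0.18 for Pax5, and without mice 688 and 686 as well -0.004 ± 0.26 and -0.11 ± 0.21. Both genes enter the marrow score, so a move toward 0 is partly built in, whereas the T and NK cell genes do not enter it. Among 139 variable segments of immunoglobulins, which differ between mice, 121 were negative with a median of -1.18. Summed T and NK cell genes took 0.00538 to 0.012% of counts in CKO loaded and 0.0116 to 0.0278% in CKO non-loaded libraries, against 0.0104 to 0.0216% in WT loaded and 0.00837 to 0.0184% in WT non-loaded libraries.

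In edgeR, calls appeared only where 3 mice were left out together, and leaving out any 1 mouse gave 0. With mice 688, 686 and 699 left out, a choice made after the data were seen, 3 CKO and 5 WT mice remained and edgeR called 1196 of 18990 genes, 163 with a higher and 1033 with a lower response in CKO mice (lowest adjusted p = 0.0326). Calls with a lower response, 1033 over all 18990 genes, included 28 of 28 cell cycle, 16 of 20 erythroid and 11 of 20 neutrophil genes. They also included 7 of 13 megakaryocyte, 8 of 31 interferon-stimulated and 5 of 14 inflammasome genes. None of the 23 immediate-early, 14 osteocyte or 23 muscle genes was called in either direction. Only 163 of all 18990 genes were called with a higher response, so 0 calls among so few genes say little about these lists. Beside the 1033 of all 18990 genes, lower responses were also called for 2 of 15 osteoclast, 2 of 15 prostaglandin and 2 of 27 T and NK cell genes. The same held for 1 of 23 inflammatory and 1 of 16 macrophage genes. Beside the 163 of all 18990 genes, higher responses were called for 1 of 12 Wnt ligands and 1 of 19 BMP and TGF-beta genes. Calls of 1 or 2 members say little about a list. Leaving out mice 688 and 686 with any other mouse gave 0 calls, with the lowest adjusted p between 0.141 and 0.708. Of the WT mice, 699 had the highest mean limb difference of the muscle genes (1.13) and the lowest of the erythroid genes (-1.36), and the part of that in these calls was not tested.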

How the data were processed

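Per the labels' protocols, RNA of bones stored in RNAlater was extracted with Trizol, and 4 ng of it went into a kit for stranded libraries. The submitters' processing notes name STAR, RSEM and GRCm38, without versions, annotation or strand setting. The deposited expected counts per gene are whole numbers (25471 genes, 25428 matched to a symbol; 21999891 to 42833729 counts per library). Gene positions come from GENCODE on the same build and promoters from RefSeq.

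Groups came from the labels. The test was run in edgeR 4.0.16 with limma 3.58.1 in R 4.3.3: filterByExpr kept 18793 genes, TMM scaling, glmQLFit with robust estimation, mouse as block, loading within genotype and their difference, with 9 residual degrees of freedom and a common biological coefficient of variation of 0.245. SE is the log2 estimate divided by the square root of F. Limb differences used log2 CPM with a prior count of 2. By the labels both limbs of a number come from 1 animal, which pairs the samples, although the loaded libraries of numbers 688 and 686 went against this in the genes described above. Over all genes, deviations of the 2 limbs of a number from the group means correlated at -0.26 (mouse 694) to 0.42 (mouse 698), over 0.1 in 7 of 11 mice. Mouse 688 stood at -0.14 and mouse 686 at 0.24, so this measure did not set mouse 686 apart.

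Named genes were the 10 of smallest p on each side with at least 1 CPM (predicted models, pseudogenes and antigen receptor segments left out), up to 3 such members of each of 34 lists, and 8 fixed genes; only some of them are printed. Members and lists were chosen with earlier results of these data known. The muscle and marrow scores are mean log2 CPM of muscle and of erythroid, neutrophil and B cell genes. Within-group pairs of libraries differed by 27.6 to 552 times sampling noise (chi-square per gene, 54 pairs). Separate cultures or litters are not labelled, so p-values measure the spread between these mice. Alternatives were DESeq2 1.42.0, limma, other scalings and filters, the scores as covariates, no block, and leaving out mice.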

Additional observations from a re-analysis of the deposited data

Results flagged for a closer look

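14 of 194 sets of limb differences held a mouse far from the others of its genotype (Dixon's test at the 95% level); chance flags about 1 in 20. Among single genes, WT mouse 690 stood apart at 2.70 for Fosb and 0.045 for Bglap2, both the highest of WT. WT mouse 694 stood apart at -0.23 for Smad3, 1.23 for Ifi208, 2.17 for Cd8a and 1.55 for Cd2. WT mouse 699 stood apart at 1.35 for Bmp7, and CKO mouse 691 at -1.34 for Nlrc4. For Ltbp2, CKO mouse 688 stood at -3.01 and WT mouse 686 at 3.04. Among list means, WT mouse 694 stood apart at 1.21 for T and NK cell genes, and WT mouse 699 at 1.22 for Wnt antagonists and 2.53 for adipocyte genes. The marrow share of counts was lower in the loaded limb by the most in WT mouse 699, at -1.70 percentage points.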

How the results depend on the processing

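The count of called genes was 0 in edgeR with other scalings, filters, covariates and each mouse left out, and in limma. It was 1 with DESeq2 and the mouse as block, and 1196 without mice 688, 686 and 699. Without the replicate block, that is, without the pairing of limbs, edgeR also called 0 genes (488 at an unadjusted p under 0.05, lowest adjusted p = 0.697), so the block changed no call of the difference of responses. Non-overlapping genes numbered 316 above and 358 below without mice 688 and 686; with 1 mouse left out they numbered 35 to 223 and 48 to 279, and fewer mice can overlap less by construction. Leaving out 1 mouse, the count at an unadjusted p under 0.05 ran from 254 without mouse 691 to 3941 without mouse 688. The limb difference of the muscle share differed by 1.78 to 6.49 points with 1 mouse left out. Of 60 genes examined 2 changed direction in some fit: Tlr4, from -0.16 to 0.063 with 1 mouse left out (0.063 without mouse 698), and Ptgs2, from -0.53 to 0.43 with 1 mouse left out (-0.11, -0.10, -0.53 and -0.17 without mice 685, 692, 693 and 699); the cause was not tested. Genes near 1 CPM rest on few counts per library, and with 4 CKO mice the SEs of most named genes exceed 0.2. Of the 34 list medians, those of erythroid, Wnt target, ERK feedback, metallothionein, periosteum and tendon, endothelial, Schwann cell and nerve genes and of mitochondrial transcripts changed sign with the muscle and marrow scores; the erythroid genes enter the marrow score.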

Other observations

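The remaining lists had no called member. All 12 plasma cell genes were negative for the difference of responses (median -0.81), as were 13 of 16 macrophage genes (median -0.49), 11 of 15 prostaglandin genes (median -0.21), 33 of 35 ribosomal protein genes (median -0.13), 8 of 11 adipocyte genes (median -0.15) and 5 of 6 genes of the RANKL axis (median -0.03). Positive values were found for 9 of 11 Schwann cell and nerve genes (median 0.38), 10 of 12 angiogenic genes (median 0.14), 8 of 13 genes of periosteum and tendon (median 0.13), 9 of 12 endothelial genes (median 0.10) and 8 of 12 feedback genes of ERK signalling (median 0.09). The 6 metallothionein genes divided evenly (median 0.003). All 13 mitochondrially encoded transcripts were positive (median 0.43), with mean limb differences of -0.63, 1.68, 0.22 and 0.71 in CKO mice and of -1.37 to 1.51 in WT mice. With the muscle and marrow scores as covariates the direction turned for Schwann cell and nerve genes (median -0.25, 3 of 11 positive), periosteum and tendon (-0.24, 2 of 13), endothelial (-0.17, 1 of 12), ERK feedback (-0.04, 5 of 12) and mitochondrially encoded transcripts (-0.21, 1 of 13).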
